A study of Mus musculus with 6 samples.

Results

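Von Willebrand factor and 8 surface molecules that hold blood cells on the vessel wall were followed through the liver cells of mice fed a high-fat diet and given vehicle or ginkgetin. The 9 genes were Vwf, the selectins Selp and Sele, the immunoglobulin-type receptors Icam1, Icam2, Vcam1, Pecam1 and Madcam1, and the amine oxidase Aoc3. They were chosen by symbol, as the rows of these names among the 19349 genes present in all 6 single-cell count tables, and each symbol was found once. All animals were male C57BL/6J mice, 8 weeks old at the start, which received the high-fat diet for 24 weeks. During the last 8 weeks the 3 vehicle libraries' mice received DMSO and the 3 ginkgetin libraries' mice received ginkgetin, a biflavone, at 10 mg/kg per day by the intragastric route. Both groups thus shared the diet, and no chow-fed library was analysed here. The labels do not say how many mice each library pooled, so the p-values measure the spread between these libraries.

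Endothelial cells store von Willebrand factor and P-selectin (Selp) together in Weibel-Palade bodies, which fuse with the cell surface when the cell is activated. E-selectin (Sele) is not stored and is made after cytokine stimulation. Selectins slow leukocytes in flow by binding sialylated sugars, after which Icam1, Icam2, Vcam1 and Madcam1 engage leukocyte integrins and Pecam1 takes part in passage between endothelial cells. Liver sinusoidal endothelium differs from that of larger vessels in being fenestrated, and low selectin and von Willebrand factor levels are part of its usual description. Kupffer cells, the resident macrophages of the sinusoids, and stellate cells, the pericytes beside them, are among the Vcam1-bearing cells of the liver.

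The tables held 33168 barcodes, of which 27544 passed the cell filter, and the libraries held 13128697 to 61796882 UMIs (unique molecular identifiers, counted molecules). Replicate 3 of both groups used another barcode set and gene symbol set than replicates 1 and 2, so values within replicates 1 and 2 and within replicate 3 are given beside the results that were called. Between libraries, 203 kept barcodes occurred more than once. Clusters were named from markers that held none of the 9 genes, and 4 of 39 clusters, with 3.40% of the kept cells, stayed unnamed. Endothelial-like cells made up 20.6, 16.4 and 10.0% of cells in vehicle libraries 1, 2 and 3 and 36.6, 48.8 and 31.5% in ginkgetin libraries 1, 2 and 3. Within each library they were divided into pericentral-like, periportal-like and vascular-like (large vessel) subsets and a sinusoidal-marker subset. The last was defined by a rule rather than by its leading genes, as endothelial-like sub-clusters named for no other subset that held at least 3 of 7 sinusoidal markers above the cells outside endothelium, and Kupffer-marker cells were defined in the same way among macrophage-like cells. The groups filled different clusters. Of the endothelial-like cells, cluster 3, led by Fabp4, Lyve1 and Inhbb, held 1746 vehicle and 20 ginkgetin cells, and cluster 15 held 403 and 177. Cluster 0, led by Pde2a, Sepp1 and Ehd3, held 28 and 4031, and cluster 7, led by Selenop and Cavin2, held 12 and 971. Cluster 13, led by Adgrg6, Edn1 and Jag1, held 15 and 599. Its 10 leading genes included Vwf and the plasma cell marker Sdc1 but no endothelial marker of the naming list. Counts were summed per library and class, and levels are counts per 1000000 UMIs of that sum (CPM). A gene was called changed when edgeR's quasi-likelihood test gave a Benjamini-Hochberg adjusted p under 0.05 over all genes tested in the class together with a fold over 2.

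The upstream sequences of both selectin genes are shown first, because Selp gave the largest fitted difference among the 9 genes and Sele is its neighbour on the chromosome. Sele lies at chr1:164048234-164057677 and Selp at chr1:164115264-164150026 on the plus strand of GRCm38, with 57586 bases between them. The 250 bases before each start, at chr1:164115014-164115263 for Selp and chr1:164047984-164048233 for Sele, are from RefSeq on GRCm38.p6, with the match to the AP-1 motif TGANTCA in capitals.
Selp: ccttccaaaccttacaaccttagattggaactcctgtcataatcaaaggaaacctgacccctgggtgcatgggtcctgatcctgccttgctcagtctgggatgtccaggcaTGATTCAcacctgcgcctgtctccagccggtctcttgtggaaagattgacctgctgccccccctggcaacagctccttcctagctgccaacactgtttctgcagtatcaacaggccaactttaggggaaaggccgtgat
Sele: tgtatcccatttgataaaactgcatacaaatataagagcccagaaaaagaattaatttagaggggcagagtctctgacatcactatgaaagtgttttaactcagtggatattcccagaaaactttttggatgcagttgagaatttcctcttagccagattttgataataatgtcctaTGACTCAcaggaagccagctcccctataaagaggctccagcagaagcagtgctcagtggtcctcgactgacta

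Each window held 1 match to TGANTCA, at -139 for Selp and -73 for Sele counted from the gene start, and 6.75% of 32851 promoters of the same length held one on either strand. The TATA box TATAAA was present in the Sele window at -49 and in 12.4% of promoters, while its letters were not in the Selp window. The NF-kB consensus matched 7.25% of promoters and neither selectin window. GATA was matched 1 time for Selp and 4 times for Sele, against at least 1 match in 53.6% of promoters, and the ETS core GGAA 6 and 3 times, against 93.4%. None of the matches in the Selp and Sele windows overlapped a match to another of these motifs. Promoters of Icam1 and Madcam1 were also present in the table and held no TGANTCA match.

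**Figure D1:**
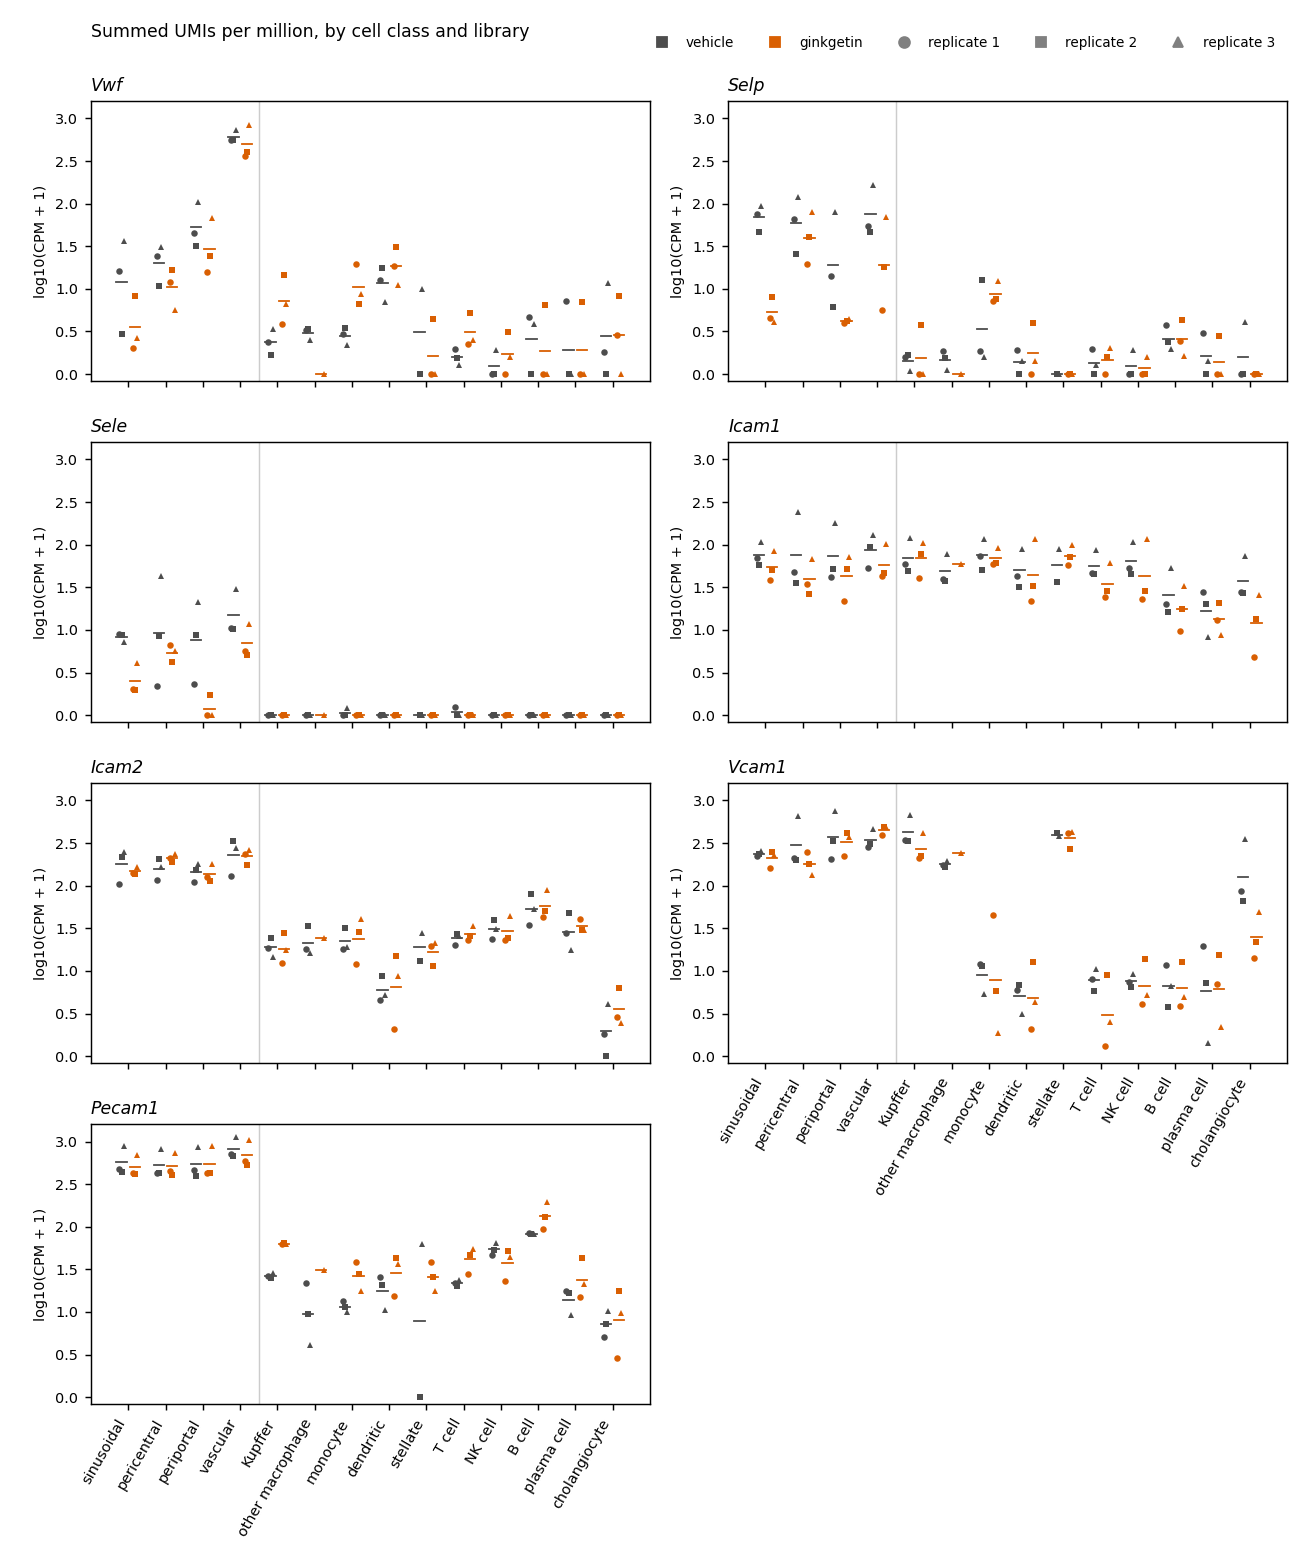
CPM of 7 of the 9 genes, on a log10(CPM + 1) axis, in 14 cell classes. Each point is 1 library with at least 10 cells of the class, the marker shape gives the replicate, and lines are group means. Vwf stood highest in the vascular-like subset and Sele was at or near 0 outside the endothelial subsets, while Icam1 was spread over most classes.

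The genes differed in how far they were confined to endothelium, given here as a description because the classes were found in the same cells. Vwf was concentrated in vascular-like endothelium, at 576 ± 187 CPM (SD over the 6 libraries), and the next class, periportal-like endothelium, had a mean of 47.4 CPM with no overlap between libraries. Selp had overlapping levels in vascular-like, pericentral-like and sinusoidal-marker cells, and outside endothelium its highest mean was 6.24 CPM in monocyte-like cells. Outside endothelium Sele had 1 UMI in monocyte-like cells of vehicle 3, 1 in T cell-like cells of vehicle 1 and 2 in hepatocyte-like cells of vehicle 3. Icam2 was highest in the endothelial subsets and, outside them, in B cell-like cells. Vcam1 was highest in endothelial, stellate-like and Kupffer-marker cells. Its means there ran from 405 ± 92.8 CPM in vascular-like to 225 ± 34.2 CPM in sinusoidal-marker cells, with stellate-like (380 ± 62.6) and Kupffer-marker (367 ± 173) cells between them, and neighbours in this order overlapped. Other macrophage-like cells followed at 193 ± 34.4 CPM and cholangiocyte-like cells at 98.0 ± 128 CPM, also overlapping. Pecam1 was highest in the 4 endothelial subsets, whose means lay between 541 and 778 CPM, and B cell-like cells followed at 110 ± 45.2 CPM without overlap. Icam1 was found in nearly every class, with overlapping levels in neighbouring classes, from 76.7 ± 35.7 CPM in vascular-like to 6.68 ± 6.62 CPM in hepatocyte-like cells.

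Selp, the receptor that starts leukocyte rolling, was lower with ginkgetin in sinusoidal-marker endothelium, a call that was lost when single libraries were left out. Its level there was 75.0, 46.0 and 92.9 CPM in vehicle libraries 1, 2 and 3 and 3.56, 6.97 and 3.07 CPM in ginkgetin libraries 1, 2 and 3, from 114, 24 and 121 UMIs against 7, 28 and 15. Every vehicle library lay above every ginkgetin library, with means of 71.3 ± 23.7 and 4.54 ± 2.12 CPM (SD, n = 3). The fitted log2 difference was -4.11 ± 0.42 (SE), or 17.3-fold, with an edgeR adjusted p of 0.0136 among 9289 genes. Selp was 1 of 7 tested genes of the 9 to be called in this class, where 1.52% of all genes were called lower and 7.84% had every ginkgetin library below every vehicle library. With the replicate number as a block the difference was -4.18 with an adjusted p of 0.000145. Within replicates 1 and 2 the log2 ratio of mean CPM was -3.52, and within replicate 3 it was -4.92. Leaving out 1 library moved the log2 difference between -4.64 and -3.75, and the adjusted p passed 0.05 without vehicle 1 (0.142), vehicle 2 (0.0719), ginkgetin 1 (0.133) or ginkgetin 2 (0.0869), fits in which no gene at all was called.

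The cells behind this comparison came from different clusters in the groups, namely clusters 3 and 15 for 79.3 and 19.2% of the vehicle cells and clusters 0 and 7 for 76.8 and 21.0% of the ginkgetin cells. Of the 16 sub-clusters of the class, 5 had more markers of another subset than sinusoidal markers among their 10 leading genes. All 5 were from ginkgetin libraries, among them every sub-cluster of ginkgetin 2, and the genes were Msr1 in 3 of them, Kit and Wnt2 in 1 and Kit in 1. Without these 5, an alternative added after the data were seen, 607 cells of ginkgetin 1 and 462 of ginkgetin 3 remained, with Selp at 4.24 and 3.63 CPM. The vehicle libraries were as before, and the log2 difference of -4.40 ± 0.38 was no longer called (adjusted p = 0.0898), in a fit of 3 against 2 libraries in which no gene was called.

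The share of sinusoidal-marker cells with a Selp UMI showed the same order. After each cell was thinned to 1000 UMIs it was 5.12, 2.14 and 6.25% in the vehicle libraries and 0.575, 0.643 and 0.760% in the ginkgetin libraries. The groups did not overlap, and the two-sided exact permutation p was 0.1, the smallest that 3 against 3 libraries allow, with an adjusted p of 0.64. Without thinning the shares were 13.9, 6.42 and 18.8% against 0.690, 1.61 and 1.51%, at median depths of 2866, 2400 and 7268 UMIs against 2184, 2499 and 7288.5. T cells are not known to make Selp, and in T cell-like cells the unthinned shares were 0.352, 0 and 0.127% against 0, 0.207 and 0.687%, at median depths of 3264, 2737 and 4374.5 against 2627, 3116 and 6381.5 UMIs. In each of the 6 libraries the sinusoidal-marker share was above the T cell-like share.

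Sums of marker lists in the sinusoidal-marker cells are set beside this result. The 7 sinusoidal markers summed to 7424, 7939 and 8581 CPM in the vehicle libraries and 11347, 11648 and 14605 CPM in the ginkgetin libraries. The 8 endothelial markers summed to 7792 to 10582 CPM with vehicle and 13495 to 18589 CPM with ginkgetin, and the 8 macrophage markers to 271 to 528 and 68.7 to 202 CPM. The 8 vascular markers, of which 7 or 8 had UMIs in each library, summed to 395, 382 and 713 CPM in the sinusoidal-marker cells of the vehicle libraries and 166, 314 and 238 CPM in those of the ginkgetin libraries. Fbln5 was at 0 in 4 of these libraries. The 6 pericentral markers summed to 274 to 415 CPM with vehicle and 408 to 557 CPM with ginkgetin, with Wnt9b at 0 in the vehicle libraries. The 5 mesothelial markers summed to 19.2 to 36.8 CPM with vehicle and 1.02 to 3.05 CPM with ginkgetin, with Wt1 at 0 in all but 1 ginkgetin library. With vehicle only Gpm6a and, in vehicle 1 and 3, Upk3b had UMIs, so that Msln, Wt1 and Upk1b were at 0 there, against 3 of the 5 markers with UMIs in each ginkgetin library. The part of these marker sums in the Selp result was not tested. Platelets also carry Selp, and the 6 platelet markers summed to 19.2 to 39.9 CPM with vehicle and 12.1 to 30.6 CPM with ginkgetin, with Gp1bb and Treml1 at 0 in all 6 libraries. When sinusoidal-marker cells with any UMI of a vascular or pericentral marker were left out, an alternative added after the data were seen, 10 to 76 cells per vehicle library and 45 to 299 per ginkgetin library remained. They held 10, 3 and 0 Selp UMIs with vehicle and 3, 2 and 0 with ginkgetin, or 36.3 and 3.32 CPM over the summed libraries.

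Within the vehicle libraries, Selp was uneven among the sinusoidal-marker sub-clusters. In vehicle 1 it was 96.0 CPM in a sub-cluster of 311 cells led by Odc1, Kcne3, Kcnj8 and Esm1 and 26.3 CPM in one of 158 cells led by Cxcl10 and Atf3. In vehicle 2 it was 60.1 CPM in 133 cells led by Esm1, Ctgf and Odc1 and was not detected in the other 54 cells. In vehicle 3 it was 112 CPM in 89 cells led by Stmn1, Odc1 and Kcne3 and 58.9 CPM in the other 76. Thus, the highest sub-cluster of each vehicle library had Odc1 among its leading genes. No sinusoidal-marker sub-cluster of a ginkgetin library passed 7.87 CPM. That included 92 cells of ginkgetin 3 led by Esm1, Ctgf, Abcc9 and Angpt2, where Selp was 1.41 CPM from a single UMI.

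**Figure D2:**
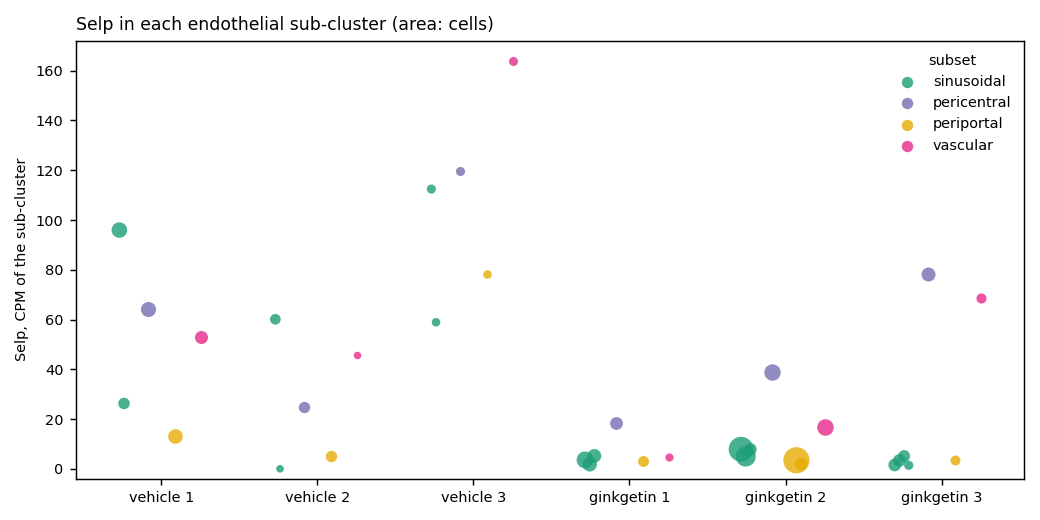
Selp CPM in each named endothelial sub-cluster of each library, by subset. Point area follows the number of cells, and an unnamed proliferating sub-cluster of 12 cells is left out. The ginkgetin sinusoidal-marker points lie at or below 7.87 CPM, while the higher vehicle points reach 112 CPM.

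The Selp values of the other endothelial subsets are set beside these. In pericentral-like endothelium, around the central vein, Selp was 64.4, 24.8 and 120 CPM with vehicle and 18.6, 39.1 and 78.4 CPM with ginkgetin. The groups overlapped, and the log2 difference of -0.75 ± 0.54 had an adjusted p of 0.861 in a class where 0.144% of genes were called lower. In vascular-like endothelium Selp was 53.0, 45.9 and 164 CPM with vehicle and 4.65, 16.9 and 68.5 CPM with ginkgetin, with ginkgetin 3 above vehicle 1 and 2. The log2 difference of -1.43 ± 0.65 had an adjusted p of 0.9999, and -1.49 with an adjusted p of 0.0441 with the replicate block. The unblocked value was -0.74 without vehicle 3 and -2.55 without ginkgetin 3. No gene was called there in the unblocked fit (0.0% of 7668), and 0.417% were called lower with the block. In periportal-like endothelium, where none of the 5 tested genes was called and none had an unadjusted p under 0.05, Selp was below the filter on low counts, at 13.1, 5.10 and 78.2 CPM with vehicle and 2.98, 3.16 and 3.42 CPM with ginkgetin. These values came from 10, 2 and 50 UMIs against 1, 9 and 3 and did not overlap, as for 3.4% of the genes tested there in this direction.

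A single fit over the 4 subsets with library as a block, added after the data were seen, tested whether the difference between groups itself differed from that in the sinusoidal-marker class. It was less negative by 3.51 ± 0.50 on the log2 scale in pericentral-like cells (edgeR adjusted p = 4.72e-05) and by 2.83 ± 0.53 in vascular-like cells (adjusted p = 0.000595). For periportal-like cells the change of 0.84 ± 0.87 missed the threshold (adjusted p = 0.860). Over 9323 genes, 1.89%, 4.76% and 0.633% passed this test in the pericentral-like, vascular-like and periportal-like comparisons. Without the 5 sub-clusters above, and so without sinusoidal-marker cells of ginkgetin 2, the Selp values were 4.09 (adjusted p = 1.27e-05), 3.43 (adjusted p = 0.000108) and 1.55 (adjusted p = 0.639). Over all endothelial-like cells Selp was 56.2, 29.96 and 111 CPM with vehicle and 6.22, 10.5 and 27.2 CPM with ginkgetin, with no overlap, as for 6.29% of genes in this direction. There the log2 difference was -2.31 ± 0.55 with an adjusted p of 0.145, and it was called with the replicate block at -2.29 (adjusted p = 0.00404) and by DESeq2 (adjusted p = 0.000689). The unblocked value was -2.90 without ginkgetin 3 and -1.89 without vehicle 3. Over all cells of a library Selp overlapped between groups, at 6.96, 4.70 and 9.17 CPM against 2.12, 5.38 and 10.4 CPM.

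**Figure D3:**
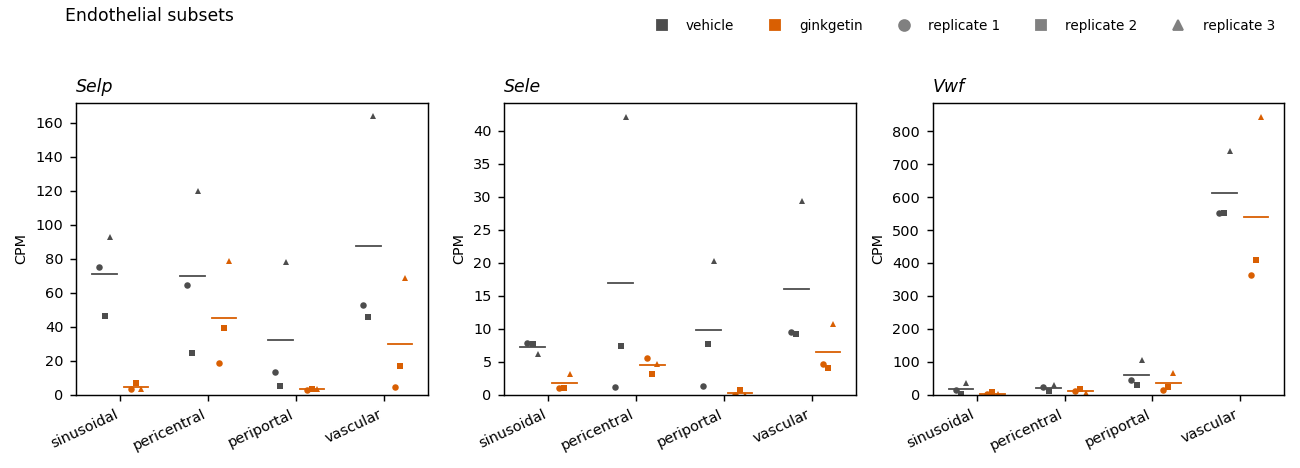
CPM of Selp, Sele and Vwf in the 4 endothelial subsets, with 1 point per library. Selp separated the groups in the sinusoidal-marker and periportal-like subsets and overlapped in the pericentral-like and vascular-like subsets. Vwf was highest in vascular-like cells in both groups.

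Sele, the selectin induced by cytokines, was sparse. In sinusoidal-marker cells it was 7.89, 7.67 and 6.14 CPM with vehicle and 1.02, 0.996 and 3.07 CPM with ginkgetin, from 12, 4 and 8 UMIs against 2, 4 and 15. The groups did not overlap, but the log2 difference of -2.21 ± 0.51 missed the threshold (adjusted p = 0.0860). It passed with the replicate block (-2.10, adjusted p = 0.0405), where 4.25% of genes were called lower, and by DESeq2 (adjusted p = 0.0280), which called 2.79% lower. Leaving out 1 library moved the unblocked value between -2.83 (without ginkgetin 3) and -2.01 (without ginkgetin 2). Over all endothelial-like cells Sele was 5.52, 7.82 and 21.7 CPM against 1.965, 1.55 and 3.97 CPM, again with no overlap. The log2 difference of -2.32 ± 0.53 had an adjusted p of 0.138, and it was called with the block (-2.34, adjusted p = 0.00797) and by DESeq2 (adjusted p = 0.00323). The unblocked value was -2.71 without ginkgetin 3 and -1.68 without vehicle 3.

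In pericentral-like cells Sele was 1.17, 7.43 and 42.1 CPM with vehicle and 5.57, 3.17 and 4.64 CPM with ginkgetin, so that vehicle 3 stood above all other libraries. In periportal-like cells it was 1.31, 7.66 and 20.3 CPM with vehicle, 0.703 CPM in ginkgetin 2 and 0 in ginkgetin 1 and 3. That separation rested on 1, 3 and 13 UMIs against 0, 2 and 0, and Sele was below the filter on low counts there. In vascular-like cells it was 9.43, 9.18 and 29.4 CPM with vehicle and 4.65, 4.02 and 10.8 CPM with ginkgetin, with ginkgetin 3 above vehicle 1 and 2.

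Vwf, the carrier of factor VIII and the tether for platelets, did not pass the unblocked test in any class. In its main site, the vascular-like cells, it was 551, 551 and 739 CPM with vehicle and 363, 408 and 845 CPM with ginkgetin. The highest library belonged to the ginkgetin group, and the log2 difference was -0.22 ± 0.32 (adjusted p = 0.9999). Without cells carrying markers of other lineages it turned to 0.44, which was not called either. In sinusoidal-marker cells Vwf was 15.1, 1.92 and 35.3 CPM with vehicle and 1.02, 7.22 and 1.64 CPM with ginkgetin, from 23, 1 and 46 UMIs against 2, 29 and 8. The groups overlapped through vehicle 2, and the log2 difference of -2.50 ± 0.90 had an adjusted p of 0.219, and -2.82 with an adjusted p of 0.0409 with the replicate block. Leaving out 1 library moved the unblocked value between -3.83 (without ginkgetin 2) and -1.81 (without vehicle 3). The change from the sinusoidal-marker to the vascular-like difference was 2.40 ± 0.57 on the log2 scale (adjusted p = 0.00751). Without the 5 sub-clusters led by markers of other subsets these values were -4.58 (adjusted p = 0.216) and 4.66 (adjusted p = 3.88e-05). Those fits held no sinusoidal-marker cells of ginkgetin 2, the library with 29 of the UMIs above. Ginkgetin 1 and 3 kept 1 and 3 Vwf UMIs, so both values rest on very few counts.

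Over all endothelial-like cells Vwf was 137, 89.2 and 194 CPM with vehicle and 29.8, 68.3 and 106 CPM with ginkgetin. Ginkgetin 3 lay above vehicle 2, and the log2 difference of -1.20 ± 0.40 had an adjusted p of 0.253, and -1.26 with an adjusted p of 0.0338 with the block. Without cluster 13, which held 15 vehicle and 599 ginkgetin cells, it was -2.02 ± 1.002 (adjusted p = 0.422). Vwf was among the leading genes of this cluster, which held 76.8% of the ginkgetin and 4.02% of the vehicle vascular-like cells. Leaving it out removed Vwf-rich cells mainly from ginkgetin 1 and 2, which then stood at 5.66 and 8.88 CPM, so that value is no check of the difference. None of the 9 genes was called over all endothelial-like cells by edgeR, which called 0.698% of genes, or by voom. Of the 7 tested, 3 had an unadjusted p under 0.05, as 14.0% of all genes did, and DESeq2 called 2, Selp and Sele, where it called 2.15% of genes lower. With the replicate block edgeR called 3, Selp, Sele and Vwf, all lower, where 2.89% of genes were called lower. Periportal-like Vwf was 44.7, 30.6 and 105 CPM against 14.9, 23.2 and 66.1 CPM, and pericentral-like Vwf was 23.4, 9.90 and 30.3 CPM against 11.1, 15.9 and 4.64 CPM.

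Low Vwf values were also present outside endothelium. The highest mean there was 15.4 ± 8.30 CPM in dendritic-like cells. In that class the means of replicates 1 and 2 were 14.2 CPM with vehicle and 23.8 CPM with ginkgetin, and replicate 3 was 5.99 and 10.2 CPM, so the groups overlapped. In monocyte-like cells Vwf was 1.94, 2.44 and 1.20 CPM with vehicle and 18.8, 5.69 and 7.76 CPM with ginkgetin, and every ginkgetin library was above every vehicle library, as for 8.81% of genes in this class. The log2 difference of 2.38 ± 0.63 had an adjusted p of 0.215, and 2.43 with an adjusted p of 0.0434 with the replicate block, where 1.58% of genes were called higher. With the barcode set, replicate 3 against replicates 1 and 2, as the block it was not called. Without ginkgetin 1 the unblocked value was 1.63. The 8 endothelial markers, each with UMIs in each library, summed to 32.0 to 58.4 CPM in the monocyte-like cells of the vehicle libraries and 129 to 845 CPM in those of the ginkgetin libraries, and their part in this difference was not tested. DESeq2 called Vwf in this class, as it did 1.02% of genes in this direction, and no gene was called by edgeR without the block (0.0%).

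Genes of the Weibel-Palade and von Willebrand factor axis had fitted differences of both signs in the same cells, and those called were lower. In sinusoidal-marker endothelium 4 of 7 tested genes of this list of 10 were called lower, as 1.52% of all genes of the class were, and 0 higher, with a median log2 difference of -1.85 against -0.01 over all genes of the class. Angpt2, an antagonist of the Tie2 receptor stored in Weibel-Palade bodies, was 109, 111 and 134 CPM with vehicle and 30.5, 37.1 and 44.3 CPM with ginkgetin (log2 difference -1.85, adjusted p = 0.0102). Cd63, a tetraspanin of the same granules and of lysosomes, was 151, 95.9 and 135 CPM against 20.4, 36.1 and 46.3 CPM (-2.11, adjusted p = 0.0224). Edn1, a vasoconstrictor peptide precursor, was 40.8, 32.6 and 35.3 CPM against 2.04, 5.48 and 1.43 CPM (-3.74, adjusted p = 0.0267), and it was also 1 of the 8 markers that named vascular-like cells. Procr, the endothelial protein C receptor, was named after its values were seen, because it was called (-2.41, adjusted p = 0.0372). The other 3 tested genes, also named after their values were seen, were not called, with a log2 difference of 1.05 (adjusted p = 0.126, unadjusted p = 0.00848) for Rab27a, a small GTPase of Weibel-Palade bodies, 0.18 for F8 (factor VIII) and -0.14 for Thbd (thrombomodulin). For each of the 4 called genes every vehicle library lay above every ginkgetin library, and each lost its call without vehicle 1, vehicle 2, ginkgetin 1 or ginkgetin 2, or without the 5 sub-clusters led by markers of other subsets, as every gene of the class did. In that last fit, of 3 against 2 libraries, the log2 differences were -1.93 for Angpt2, -2.47 for Cd63, -4.42 for Edn1 and -2.55 for Procr, each larger in size than before, and 0.98 for Rab27a, 0.42 for F8 and 0.050 for Thbd. Over all endothelial-like cells only Angpt2 was called from this list, at -1.36 (adjusted p = 0.0473), and it lost the call without any 1 library (log2 differences of -1.46 to -1.19, adjusted p of 0.0833 to 0.284). Cd63 is also abundant in macrophages, and the 8 macrophage markers summed to 271 to 528 CPM in the sinusoidal-marker cells of the vehicle libraries and 68.7 to 202 CPM in those of the ginkgetin libraries.

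**Figure D4:**
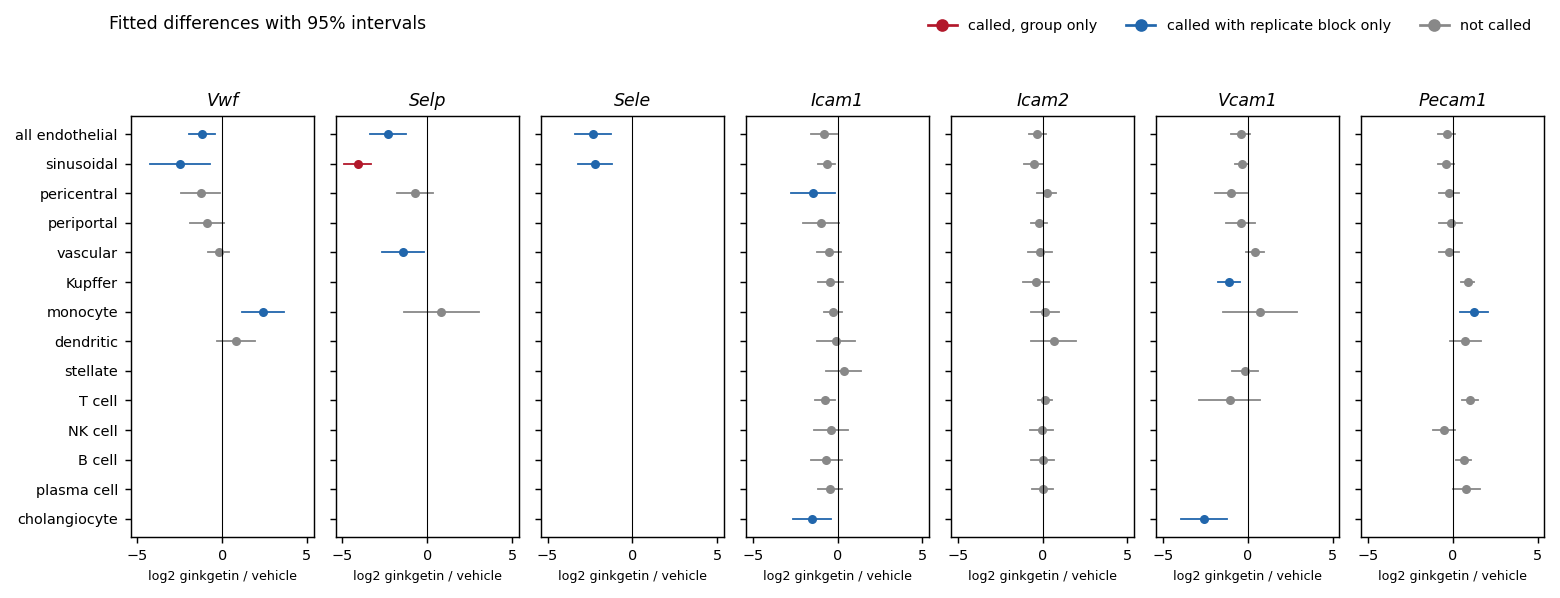
Fitted log2 difference, ginkgetin against vehicle, of each tested gene of the 9 in each class, with 95% intervals from the SE. Red marks genes called without a block, blue those called only with the replicate block, and grey the rest. Selp in sinusoidal-marker cells is the red point. The fit over all cells, in which Pecam1 was called, is not drawn.

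Icam1, a ligand of the leukocyte integrin LFA-1 that many cells carry, gave no call in the unblocked fits. In sinusoidal-marker cells it was 69.7, 57.5 and 107 CPM with vehicle and 37.7, 50.04 and 84.4 CPM with ginkgetin, with ginkgetin 3 above vehicle 1 and 2 (log2 difference -0.65 ± 0.25, adjusted p = 0.252). In pericentral-like cells vehicle 3 stood far above the other libraries, at 46.8, 34.7 and 244 CPM against 33.4, 25.4 and 67.1 CPM. The adjusted p there was 0.650, and 0.0185 with the replicate block (-1.36), where 2.17% of genes were called lower. Without vehicle 3 the unblocked difference was -0.24. In Kupffer-marker cells Icam1 overlapped fully, at 58.2, 48.4 and 120 CPM against 39.8, 77.5 and 104 CPM. In stellate-like cells, where vehicle 1 had too few cells, it was 35.9 and 88.5 CPM in vehicle 2 and 3 and 56.6, 69.8 and 97.0 CPM with ginkgetin.

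In T cell-like cells Icam1 was 45.2, 44.6 and 85.1 CPM with vehicle and 23.5, 27.3 and 60.3 CPM with ginkgetin, and ginkgetin 3 lay above vehicle 1 and 2 (log2 difference -0.72, adjusted p = 0.451). In cholangiocyte-like cells, the bile duct epithelium, it was 26.5, 25.9 and 71.7 CPM against 3.81, 12.6 and 25.001 CPM, without overlap, as for 11.8% of genes in this direction. That log2 difference of -1.49 ± 0.57 had an adjusted p of 0.324, and -1.55 with an adjusted p of 0.0136 with the block, where 0.982% of genes were called lower, against 0.0378% without the block. Without vehicle 3 the unblocked value was -0.90.

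Icam2, a second LFA-1 ligand held constitutively by endothelium and lymphocytes, kept overlapping levels within the endothelial subsets. In sinusoidal-marker cells it was 104, 219 and 247 CPM with vehicle and 140, 136 and 166 CPM with ginkgetin. Pericentral-like levels were 115, 205 and 166 CPM against 210, 190 and 235 CPM, and vascular-like levels were 130, 330.5 and 279 CPM against 232, 173 and 264 CPM. The pericentral-like difference between groups was 0.75 ± 0.19 above the sinusoidal-marker one on the log2 scale (adjusted p = 0.0299). Over all cells Icam2 was 26.7, 43.5 and 32.2 CPM with vehicle and 55.1, 71.7 and 88.5 CPM with ginkgetin, with no overlap, as for 30.6% of genes in this direction (log2 difference 0.74 ± 0.21, adjusted p = 0.0522). The share of endothelial-like cells also differed between these libraries, and more endothelial cells and more Icam2 per cell cannot be told apart in a sum over all cells.

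Vcam1, the ligand of the integrin VLA-4, was high in Kupffer-marker cells. It was 343, 332 and 684 CPM there with vehicle and 210, 222 and 412 CPM with ginkgetin, with ginkgetin 3 above vehicle 1 and 2. The log2 difference of -1.10 ± 0.32 had an adjusted p of 0.0770, in a class where 3.42% of genes were called lower. It was called with the replicate block (-1.08, adjusted p = 0.00582), where 6.94% of genes were called lower, and by DESeq2 (adjusted p = 0.00871), which called 5.78% lower. Kupffer-marker cells of the groups differed in depth, with medians of 10151, 6814 and 18941.5 UMIs per cell with vehicle and 2372, 2071 and 2215 with ginkgetin, and the part of this depth gap in the difference was not tested. The cells also came from different clusters, namely clusters 1 and 21, led by Fabp7 and by Mmp12, for 64.5 and 25.7% of the vehicle cells and clusters 16 and 27, led by Marco and by Cd163, for 57.7 and 32.6% of the ginkgetin cells. Of 20 Kupffer-marker sub-clusters, 5 had more markers of another macrophage subset among their 10 leading genes, and without them the Vcam1 difference was -0.82 (adjusted p = 0.169). In stellate-like cells Vcam1 was 413 and 381 CPM in vehicle 2 and 3 and 415, 272 and 421 CPM with ginkgetin, and the log2 difference of -0.14 was smaller than the spread between libraries. Of all genes tested in stellate-like cells, 0.031% were called, and neither of the 2 tested genes of the 9 had an unadjusted p under 0.05.

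Vcam1 in the endothelial subsets overlapped between groups. It was 220, 238 and 257 CPM with vehicle and 160, 245 and 230 CPM with ginkgetin in sinusoidal-marker cells. In pericentral-like cells it was 211, 198 and 665 CPM against 247, 180 and 132 CPM, with vehicle 3 far above the rest. Periportal-like levels were 205, 332 and 756.5 CPM against 220, 415 and 375 CPM, and vascular-like levels were 281, 307.5 and 468 CPM against 395, 492.5 and 485 CPM. In cholangiocyte-like cells every vehicle library was above every ginkgetin library, at 86.3, 65.3 and 354 CPM against 13.3, 20.9 and 48.5 CPM, as for 11.8% of genes. The log2 difference of -2.58 ± 0.68 had an adjusted p of 0.206, and -2.43 with an adjusted p of 1.78e-05 with the block, where 0.982% of genes were called lower. Without vehicle 3 the unblocked value was -1.47, and without ginkgetin 3 it was -3.13. The 6 cholangiocyte markers summed to 26915 to 40131 CPM in these cells with vehicle and 17463 to 21005 CPM with ginkgetin.

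Pecam1, the junctional receptor CD31, was the only other gene of the 9 to be called by edgeR without a block, and this was over all cells. It was 76.5, 56.2 and 89.0 CPM with vehicle and 137, 206 and 301 CPM with ginkgetin, with no overlap. The log2 difference was 1.18 ± 0.24, or 2.27-fold, with an adjusted p of 0.0216, where 6.56% of genes were called higher and 30.6% had every ginkgetin library above every vehicle library. The adjusted p passed 0.05 without vehicle 1 (0.0909), vehicle 2 (0.0930), ginkgetin 2 (0.101) or ginkgetin 3 (0.0518). Within replicates 1 and 2 the log2 ratio of mean CPM was 1.37, and within replicate 3 it was 1.76. With the stricter filter of 250 to 5000 UMIs per cell the difference was 0.56 (adjusted p = 0.579), in a fit that called no gene. Within endothelial-like cells Pecam1 overlapped, at 515, 457 and 917 CPM with vehicle and 441, 431 and 758 CPM with ginkgetin (log2 difference -0.35, adjusted p = 0.633). The share of endothelial-like cells was higher in every ginkgetin library than in every vehicle library, and more such cells and more Pecam1 per cell cannot be told apart in the sum over all cells.

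Outside endothelium Pecam1 stood higher in the ginkgetin libraries of several classes, and endothelial markers did so too. In Kupffer-marker cells it was 25.2, 24.001 and 27.4 CPM with vehicle and 62.5, 63.9 and 61.3 CPM with ginkgetin, without overlap, as for 30.4% of genes in this class. The log2 difference of 0.87 ± 0.19 had an adjusted p of 0.0395, but at 1.83-fold it lay under the fold of 2 and was not called. Without the 5 Kupffer-marker sub-clusters led by markers of another subset it was 0.74 (adjusted p = 0.142). Before scaling, the log2 ratio of mean CPM was 1.36 within replicates 1 and 2 and 1.16 within replicate 3, from 235 and 270 UMIs with vehicle against 69 and 107 with ginkgetin. The 8 endothelial markers, all with UMIs in each library, summed to 284, 280 and 285 CPM in the Kupffer-marker cells of the vehicle libraries and 893, 1765 and 1092 CPM in those of the ginkgetin libraries.

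In monocyte-like cells Pecam1 was 12.3, 10.4 and 9.01 CPM with vehicle and 37.5, 26.6 and 16.4 CPM with ginkgetin (log2 difference 1.25, adjusted p = 0.272, and 1.20 with an adjusted p of 0.0463 with the replicate block, where 1.58% of genes were called higher). It was not called with the barcode set as the block. In T cell-like cells it was 20.6, 19.0 and 22.7 CPM against 27.2, 45.8 and 53.5 CPM (0.99, adjusted p = 0.336). In B cell-like cells it was 82.6, 82.2 and 81.2 CPM against 92.7, 128 and 195 CPM (0.65, adjusted p = 0.308). In all 3 classes the ginkgetin libraries lay above the vehicle libraries, as they did for 8.81% of genes in monocyte-like, 5.03% in T cell-like and 6.6% in B cell-like cells, and no gene was called in any of them (0.0% each). The endothelial markers summed to 39.3 to 62.5 CPM with vehicle and 142 to 798 CPM with ginkgetin in T cell-like cells, and to 59.9 to 67.9 CPM and 169 to 930 CPM in B cell-like cells. Cluster 5 held 51.7% of the vehicle and 13.8% of the ginkgetin T cell-like cells, and cluster 6 held 4.47 and 47.4%. The part of these marker sums in the Pecam1 values was not tested.

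In NK cell-like cells Pecam1 was 45.2, 52.6 and 63.3 CPM with vehicle and 21.9, 51.1 and 43.7 CPM with ginkgetin, so the order seen in T cell-like and B cell-like cells was not present there (log2 difference -0.51, adjusted p = 0.608), and none of the 3 tested genes was called (0.0%). Icam1 and Icam2 in NK cell-like cells also overlapped, at 44.3 to 107 CPM against 21.9 to 117 CPM and at 22.6 to 38.7 CPM against 21.9 to 43.1 CPM. The other macrophage-like cells could not be compared, because under the naming used no cell of ginkgetin 1 or ginkgetin 2 fell in that class. Sub-clusters of 18 cells of ginkgetin 1 and 54 of ginkgetin 2 with Cx3cr1 and Ccr2 among their leading genes were counted as Kupffer-marker cells.

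**Figure D5:**
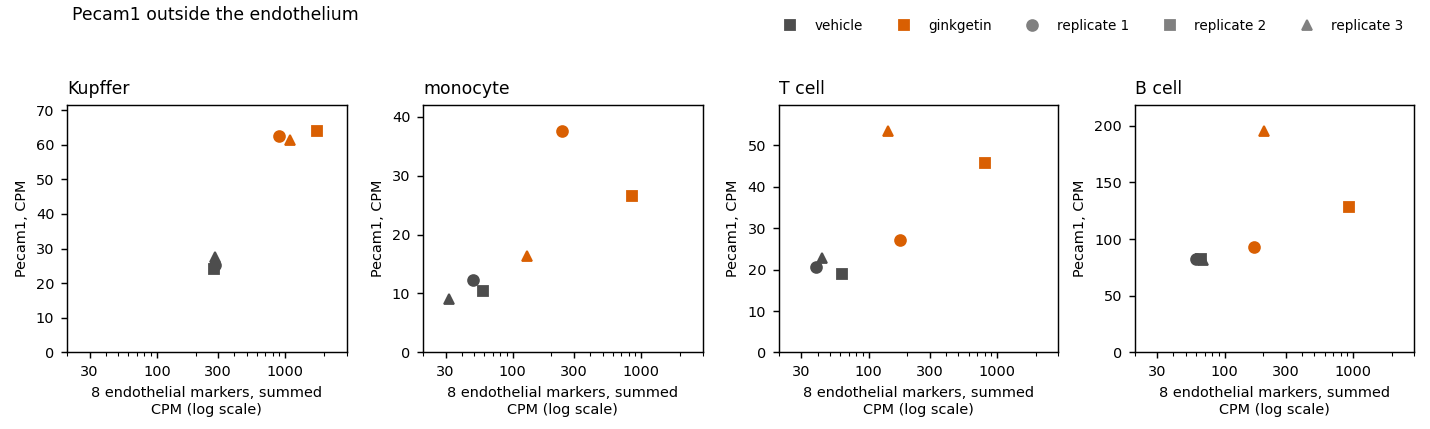
Pecam1 CPM against the summed CPM of 8 endothelial markers (log axis) in Kupffer-marker, monocyte-like, T cell-like and B cell-like cells, with 1 point per library. In each class the ginkgetin points lie to the right of and above the vehicle points.

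Madcam1, the gut addressin for the integrin a4b7, and Aoc3, vascular adhesion protein 1, were too sparse to test. Madcam1 had 10 UMIs in 9 of 27544 cells, 6 of them in vehicle 1 and 4 in vehicle 3. Aoc3 had 53 UMIs in 29 cells, of which 41 were in 23 cells of an unnamed cluster of 104 cells led by Gsn, Igfbp6, Dpt and Clec3b. In that cluster Aoc3 was 18.9, 16.1 and 35.0 CPM with vehicle and 0, 95.3 and 80.7 CPM with ginkgetin, from 3, 2 and 5 UMIs against 0, 5 and 26. The groups overlapped, and the values rested on 8 to 33 cells per library.

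The leukocyte counter-receptors of these molecules and the junctional genes of the vessel wall gave few calls in sinusoidal-marker cells and more in Kupffer-marker cells and over all cells. Over all cells 5 of 11 tested junctional genes were called higher and 0 lower, where 6.56% of all genes were called higher. Of 10 integrin subunits 3 were called lower there and 0 higher, and of 12 selectin ligands and enzymes 2 lower and 2 higher. The share of endothelial-like cells also differed in these sums. Of 14 selectin ligands and glycan enzymes, 8 were tested in sinusoidal-marker cells and 0 were called by edgeR, with 3 at an unadjusted p under 0.05, which 17.5% of all genes of the class had. In Kupffer-marker cells 9 were tested, of which Podxl, a sialomucin, was called higher, as 3.79% of all genes of the class were (log2 difference 4.68, adjusted p = 0.0270) and Fut7, a fucosyltransferase, lower (-1.52, adjusted p = 0.0477). Among 10 integrin subunits, Itgb3, the b3 chain that binds vitronectin and fibrinogen, was called lower in sinusoidal-marker cells (-1.69, adjusted p = 0.0252). That call was lost without vehicle 1, vehicle 2, ginkgetin 1 or ginkgetin 2, or without the 5 sub-clusters led by markers of other subsets (-1.74, adjusted p = 0.156). Itgb3 was also called lower over all endothelial-like cells (-1.42, adjusted p = 0.0473), a call it lost without any 1 library (-1.55 to -1.30, adjusted p of 0.107 to 0.284). In Kupffer-marker cells Itgal, the LFA-1 a chain (1.22, adjusted p = 0.0310), and Itgb7 (1.65, adjusted p = 0.0347) were called higher and none of the 8 tested subunits lower. Among 12 junctional genes, 10 were tested in sinusoidal-marker cells and 0 called by edgeR, with 6 at an unadjusted p under 0.05. In Kupffer-marker cells 3 of 8 were called higher, namely Cldn5 (4.49, adjusted p = 0.0235), Cdh5 (1.10, adjusted p = 0.0362) and Esam (2.81, adjusted p = 0.0455), and F8 of the von Willebrand factor list was also called higher there (2.41, adjusted p = 0.0456). Without vehicle 1, vehicle 2, ginkgetin 1 or ginkgetin 2 no gene was called in Kupffer-marker cells. Without the 5 Kupffer-marker sub-clusters led by markers of another subset, Itgal, Cdh5, Esam and F8 kept their calls, Itgb7 did not (adjusted p = 0.0727), and Podxl, Fut7 and Cldn5 fell below the filter on low counts. Cd63 of the von Willebrand factor list became called lower in that fit (-5.79, adjusted p = 0.00957), as were 362 of 8138 genes. Cldn5, Cdh5 and Esam are endothelial in the textbook description, and Cdh5 is 1 of the 8 endothelial markers whose sum was higher in those libraries.

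The genes with the most similar pattern over 15 classes were found by Pearson's r of log2(mean CPM + 1) among 6615 candidates, given as a description over class means that share libraries. For Vwf they were Edn1 (r = 0.89), Fam198b (0.86) and Mecom (0.86), and for Selp they were Pcdh17, Fabp4 and Emcn (each 0.94). For Icam1 they were Ppp1r9b (0.95), Tln1 (0.94) and Gnai2 (0.94), and for Icam2 they were Klf2 (0.91), Rnf144a (0.89) and Rasgrf2 (0.89). For Vcam1 they were Itga9 (0.98), a subunit of a Vcam1-binding integrin, Trim47 (0.96) and Serinc1 (0.96), and for Pecam1 they were Slc26a10 (0.96), Unc45b (0.94) and Shank3 (0.94).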

How the data were processed

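Single-cell RNA of liver non-parenchymal cells was measured in 6 droplet (10x) libraries, 3 per group. The deposited values are counts: UMIs per gene and barcode, made by the authors with build GRCm38 (mm10, per the labels). The aligner is not given in the sources used here. The labels' extraction text names a bulk RNA kit, which does not describe a droplet library. No column of per-sample values was left unused.

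Barcodes with 250 to 5000 genes and under 5% mitochondrial UMIs were kept; the lowest gene number in the tables was 501. No doublet caller was run, since the effect of other lineages' markers was tried as an alternative. Cells were clustered (2000 variable genes without the 9 members, 30 principal components, 15 neighbours, leidenalg 0.10.2 at resolution 1) and named from markers detected in 25% of cells at 2-fold, with at least 3 needed. Endothelial-like and macrophage-like cells were divided again within each library, with thresholds of 10% and 1.5-fold for endothelial subsets set after the markers were seen; sub-clusters that reached no other subset's markers were kept as sinusoidal-marker or Kupffer-marker cells by at least 3 markers against cells outside the parent class. Counts were summed per library and class with at least 10 cells, filtered by filterByExpr, TMM-scaled and tested with edgeR 4.0.16 (quasi-likelihood, group only) in R 4.3.3, with Benjamini-Hochberg adjustment over all genes of the class. Stellate-like cells of vehicle 1 (6 cells) were left out. The floor was 3 counts. Shares used cells thinned to 1000 UMIs and a two-sided exact permutation test in scipy 1.17.1.

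Median depth was 3911.5 to 8412 UMIs per cell in the vehicle libraries and 2483 to 6262 in the ginkgetin libraries. On simulated counts for the sinusoidal-marker class (9417 genes), 60 of 100 genes changed 4-fold and 3 of 100 changed 2-fold were called, with 1 false call. For Kupffer-marker cells (9507 genes) these were 45, 3 and 0.

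The replicate numbers come from the labels, which do not say that a number marks a shared animal or day. In each of 14 classes every same-numbered pair deviated together from its group mean, with correlations of 0.754, 0.679 and 0.918 in sinusoidal-marker and 0.602, 0.646 and 0.866 in Kupffer-marker cells. Replicate 3 of both groups used another barcode and symbol set, which alone moves replicates 1 and 2 together, so these correlations do not show that replicates 1 and 2 are paired. Of the 3 vehicle libraries, 2 in sinusoidal-marker, 3 in Kupffer-marker and 1 in cholangiocyte-like cells matched their own number best. Fits with the replicate block are given where they change a call.

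Named genes were the 9 members, the 3 genes most alike over classes for each member reaching 20 CPM in a class, and from 4 lists of related genes the 3 of lowest p in a class. The members and lists were chosen with earlier results of these data known. Alternatives were DESeq2 1.42.0 and its size factors, limma-voom (limma 3.58.1), no gene filter, blocks, single libraries left out, another cell filter, resolution 2 and members among the clustering genes. Positions are from GENCODE on GRCm38. RefSeq upstream sequences matched 4 of the 9 genes.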

Additional observations from a re-analysis of the deposited data

Results flagged for a closer look

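For 4 results, the group difference itself differed between endothelial subsets when tested in one edgeR fit over the 4 subsets with library as a block. For Selp, the log2 difference between ginkgetin and vehicle was 3.51 higher (less negative) in pericentral-like than in sinusoidal-marker cells and 2.83 higher in vascular-like than in sinusoidal-marker cells. For Vwf it was 2.40 higher in vascular-like than in sinusoidal-marker cells. For Icam2 it was 0.75 higher in pericentral-like than in sinusoidal-marker cells. The subsets were named from these same cells. Without the 5 of 16 sinusoidal-marker sub-clusters that were led by markers of other subsets, all from ginkgetin libraries, these 4 values were 4.09, 3.43, 4.66 and 0.87 in the same order, each with an adjusted p under 0.05. That refit held no sinusoidal-marker cells of ginkgetin 2, and the Vwf value rested there on 1 UMI in ginkgetin 1 and 3 in ginkgetin 3. The summed vascular markers in the sinusoidal-marker class were also lower in every ginkgetin library than in every vehicle library; their part in these differences was not tested.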

How the results depend on the processing

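Of the log2 differences under the alternatives, 676 kept their direction and side of the threshold, 33 became called, 10 lost the call and 5 changed sign. The sign changes were Vwf in vascular-like cells (0.44) and Icam1 in Kupffer-marker cells (0.031) without cells carrying other lineages' markers, Icam1 in Kupffer-marker cells with the UMI filter (0.28), Icam1 in stellate-like cells without vehicle 2 (-0.17, up to 0.96 over the libraries left out) and Vcam1 there without ginkgetin 2 (0.11, down to -0.32); none was called, and in the stellate fits with 1 vehicle library that library was assumed to vary like the others. In endothelial-like, sinusoidal-marker and Kupffer-marker cells the members called by edgeR (0, 1 and 0) became 2, 2 and 1 with DESeq2 and 2, 2 and 1 in replicates 1 and 2 alone. With the replicate block they were 3, 3 and 1, with 1 in pericentral-like, 1 in vascular-like, 2 in monocyte-like and 2 in cholangiocyte-like cells, and this block changed no other call of the 9 genes. The barcode-set block gave the same numbers except for monocyte-like cells. DESeq2 called 1 in monocyte-like cells, replicates 1 and 2 alone gave 1 in cholangiocyte-like cells, and clustering with the members gave 1 in Kupffer-marker cells. Leaving out 1 library gave 0 to 1 in sinusoidal-marker cells and 0 to 1 over all cells, the UMI filter 0 over all cells, and leaving out sinusoidal-marker cells with vascular or pericentral markers, added after the data were seen, 0 of 4 tested. Leaving out clusters led by another class's markers, also added later, gave 0 in sinusoidal-marker cells. Over all endothelial-like cells it removed cluster 13, which had Vwf among its leading genes and held mostly ginkgetin cells. There Vwf moved from -1.20 to -2.02 (adjusted p = 0.422), and Angpt2 (-1.29, adjusted p = 0.0539) and Itgb3 (-1.36, adjusted p = 0.0549) just missed the threshold. In the fit over the subsets, then without sinusoidal-marker cells of ginkgetin 2, Vwf also passed for periportal-like cells (3.93, adjusted p = 0.0103). Over all genes the calls were 216 in sinusoidal-marker cells against 608 with the replicate block and 381 with DESeq2, and 660 in Kupffer-marker cells against 1225 with the block, 20 with the UMI filter and 28 without cells carrying other lineages' markers. The difference in the share of cells with a UMI (percentage points) changed sign for Selp in pericentral-like cells without vehicle 3 (0.319, down to -4.82 without vehicle 2), for Vwf in vascular-like cells unthinned (-5.58), thinned to 2000 UMIs (-1.38) and without ginkgetin 3 (-3.00, up to 5.46 without ginkgetin 2), and for Pecam1 in Kupffer-marker cells unthinned (-5.71), where the ginkgetin cells were shallower. In replicates 1 and 2 alone the class of highest mean became pericentral-like for Selp and monocyte-like for Icam1 (Spearman correlations of the class order with the one given of 0.946 and 0.818), and by thinned share it became pericentral-like for Selp and stellate-like for Vcam1 (0.758 and 0.929). Vwf and Icam1 kept vascular-like cells highest by thinned share, with correlations of 0.647 and 0.714. With 10 CPM added before the log, 1 of the 3 most similar genes was shared for Selp, Icam2 and Pecam1. The cause of these changes was not tested. Most genes changed 2-fold in the simulated counts were not called, where a call also needed a fold over 2. Depth was not varied there, so its part was not tested.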

Other observations

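Sele and Vwf were also counted in the sinusoidal-marker cells without a UMI of a vascular or pericentral marker, an alternative added after the data were seen. Sele was 14.2, 22.3 and 0 CPM with vehicle and 0, 1.49 and 0 CPM with ginkgetin, and Vwf was 23.7, 7.44 and 77.3 CPM with vehicle and 1.71, 7.44 and 8.12 CPM with ginkgetin, so that vehicle 2 and ginkgetin 2 and 3 overlapped and the vehicle 3 value rested on a single UMI. Over the summed vehicle libraries these cells held 6 Sele and 7 Vwf UMIs, or 16.8 and 19.5 CPM. Over the summed ginkgetin libraries they held 1 Sele and 8 Vwf UMIs, or 0.665 and 5.32 CPM. The counts are too few for a test by gene.

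Selp in monocyte-like cells was uneven between libraries, at 0.881, 11.8 and 0.601 CPM with vehicle and 6.26, 6.64 and 11.2 CPM with ginkgetin. In vehicle 2 its 34 UMIs came from 6 of 491 cells, and in ginkgetin 3 its 13 UMIs came from 3 of 131 cells. The groups overlapped, and the log2 difference of 0.83 ± 1.124 had an edgeR adjusted p of 0.778.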
